A study of Homo sapiens with 3 samples.

Results

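The chromatin modifiers and remodelers with edited transcripts were described across the clusters deposited for RBFOX2-APOBEC1 STAMP. Members were all genes whose symbol belongs to the CHD, SMARC, KMT2 or MLL, KDM, HDAC, SETD, BRD, ARID, EHMT, DNMT, TET, KAT or EZH series or is EP300, CREBBP, SUZ12, NSD1 or BPTF. The symbol was the first one listed for a cluster, KDM5D was left out (no cluster carried that name), and the rule reads gene names and no measured value. Of 9109 genes with a cluster, 79 met the rule, and they held 449 of 40843 clusters over the 3 replicates. The members held 173, 163 and 113 clusters in replicates 1, 2 and 3, which was 1.09% ± 0.109 (SD, n = 3 replicates) of the clusters of a replicate.

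The data come from 3 replicates of 1 condition. Cells of the human embryonic kidney line HEK293T (sold as Lenti-X, labelled HEK293XT, with the genotype given as WT) carried a doxycycline-inducible fusion of the RNA-binding protein RBFOX2 with the cytidine deaminase APOBEC1, induced for 72 h. The labels give both a transient transfection and, in the general growth text, stable lines, so the way the construct was delivered cannot be told apart here. No library of uninduced cells or of APOBEC1 alone was analysed, so no value below is set against a background level of editing. The sources call the replicates biological without saying what separated them, and p-values measure only the spread between these 3 libraries.

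DNA in the nucleus is wrapped around histones, and the members belong to families of enzymes, complex subunits and readers that act on this packaging. Methyltransferases, acetyltransferases and their opposing demethylases and deacetylases place and remove marks on histone tails, bromodomain proteins bind acetylated histones, and the SWI/SNF, ISWI and CHD families use ATP to slide or evict nucleosomes. DNMT and TET enzymes add methyl groups to DNA and oxidise them. RBFOX2 is a splicing regulator that binds RNA, and in STAMP the fused deaminase turns C into U near the places where the protein sits. A cluster is a stretch of transcript, built by the FLARE workflow from adjoining short windows, in which such edits were more frequent than a background rate for its region and read depth. The files give every cluster with its position in the hg19 genome and the exon or intron it lies in, but no sequence.

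A replicate held 655 ± 181 edited bases in member clusters (SD, n = 3 replicates), which was 0.672% ± 0.110 of the edited bases in all its clusters. These came from 347 ± 105 edited reads among 7085 ± 2163 reads in member clusters. The median member cluster was 45 bases long in every replicate and had 2 edited reads, and both medians were the same in other clusters. Member clusters spanned 21 to 165 bases and 1 to 15 edited reads. The mean read depth of a member cluster, which is the average number of reads over its bases, lay between 3.52 and 261.

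The edited members were led by a demethylase, a deacetylase and a remodeler, and 14 genes with at least 10 clusters each held 191 clusters, or 42.5% of all member clusters. KDM5B, which removes methyl groups from lysine 4 of histone H3, had 5, 12 and 6 clusters in replicates 1, 2 and 3, the most of any member by the symbol listed first. HDAC2, a class I histone deacetylase, had 10, 3 and 8 clusters. CHD2, a chromodomain ATPase that remodels nucleosomes, had 6, 7 and 6 clusters. Clusters in which CHD2 was listed after another gene are not in this count, and with them it would hold 10, 10 and 8, or 28 in all, more than the 23 of KDM5B. The counts of CHD2 by first symbol stayed within 1 cluster of each other, while those of KDM5B and HDAC2 differed by 7 between their lowest and highest replicate.

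KMT2A, the founding member of the MLL family of histone H3 lysine 4 methyltransferases, had 5, 4 and 6 clusters. HDAC1, the close relative of HDAC2, had 5, 6 and 2. KAT7, the acetyltransferase of the HBO1 complex, had 6, 5 and 1. Counts of HDAC1 and KAT7 were lowest in replicate 3, which also had the fewest clusters of the whole series (11367, against 14295 and 15181 in replicates 1 and 2). KDM5A, a demethylase of the same family as KDM5B, had 6, 4 and 2 clusters. SETD2, the enzyme that trimethylates lysine 36 of histone H3, had 3, 4 and 5. SMARCA5, an ATPase of ISWI complexes, had 3, 6 and 3. Among the genes from KMT2A to SMARCA5, only KMT2A and SETD2 had their highest count in replicate 3.

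SETD7, a lysine methyltransferase with histone and other protein substrates, had 4, 5 and 2 clusters. SMARCC1, a scaffold subunit of SWI/SNF complexes, had 5, 3 and 3, and KAT6A, an acetyltransferase also known as MOZ, had 4, 4 and 2. KDM2A, a demethylase of histone H3 lysine 36, and SETD8, the methyltransferase of histone H4 lysine 20, tied with KAT6A at 10 clusters and also had 4, 4 and 2. Among these 14 genes, HDAC2 had the most edited reads (86 over 3 replicates), followed by HDAC1 with 60 and KDM5B with 46. KDM2A had the fewest, with 16 edited reads in 10 clusters.

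**Figure D1:**
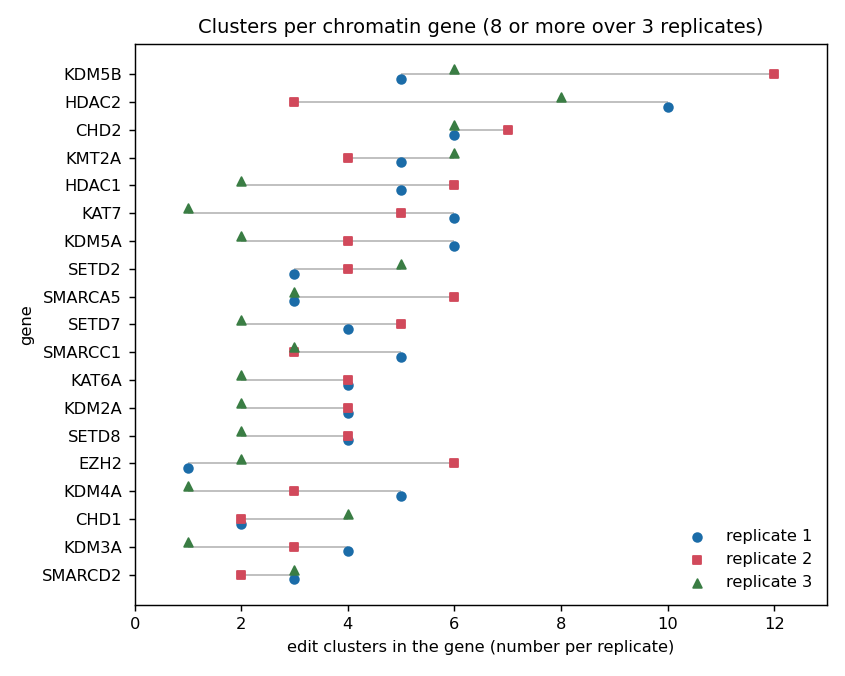
Clusters per replicate (horizontal axis, number of clusters) for the member genes with 8 or more clusters over the 3 replicates (vertical axis), with 1 symbol per replicate and a grey line from the lowest to the highest replicate. KDM5B ranges from 5 to 12 and HDAC2 from 3 to 10, while CHD2 stays between 6 and 7.

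Most members that were edited at all were edited in more than 1 replicate. Of the 79 genes, 42 (53.2%) had a cluster in all 3 replicates, 21 in 2 and 16 in 1. Over all genes with a cluster, 38.3% had one in all 3 replicates (3487 of 9109). Members held more clusters than the average gene, with a mean of 5.68 and a median of 4 over the 3 replicates against 4.48 and 3 over all genes. Among genes with the same number of clusters the order was mixed. With 3 clusters, 3 of 9 members (33.3%) and 26.8% of all genes were edited in every replicate, and with 4 clusters, 4 of 12 (33.3%) and 51.1%. With 5 clusters these were 6 of 6 and 66.5%, and with 6 clusters, 4 of 6 (66.7%) and 79.6%. The higher share of members over all numbers of clusters was therefore not seen at each number. For the zinc finger genes named ZNF and a number, a family of DNA-binding proteins (214 genes), 43 (20.1%) had a cluster in all 3 replicates.

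Recurrence of a gene was not recurrence of a place. Clusters of the 3 replicates on 1 strand that overlapped in a chain, by 1 base or more, were joined into loci, which gave 386 member loci. Of these, 339 were seen in 1 replicate, 32 in 2 and 15 in all 3, so 3.89% of member loci were found in every replicate. The share over all 33244 loci of the series was 4.77%. Of the 42 members with a cluster in all 3 replicates, 12 (28.6%) had a locus common to all 3 and 30 did not, and 15 (35.7%) shared no locus between any pair of replicates. Over all genes with a cluster in every replicate, 1152 of 3487 (33.0%) had a locus common to all 3 and 933 (26.8%) shared none between any pair. The members whose clusters never met in 1 place across all 3 replicates included KDM5A, SETD2, SMARCA5, SETD7, EP300, CREBBP and EZH2.

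Counted per cluster, 12 of 173, 9 of 163 and 11 of 113 member clusters in replicates 1, 2 and 3 had an overlapping cluster in both other replicates. These shares were 6.94%, 5.52% and 9.73%, with a mean of 7.40% ± 2.14 (SD, n = 3 replicates). For all clusters outside the members the mean was 11.2% ± 1.70. The member share was lower in every replicate, with differences of -3.68, -4.39 and -3.41 percentage points. The mean difference was -3.82 percentage points ± 0.506 (SD, n = 3 replicates), and an exact two-sided sign-flip permutation test gave p = 0.25, which is the smallest value that 3 replicates allow. Its size depended on the clusters compared, with -1.23 percentage points after weighting over read depth classes, -1.86 where at least 50% of both clusters had to overlap, -6.74 with at least 2 edited reads and -9.13 at a depth of at least 50.

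The gap was seen among deep clusters. Of member clusters with a mean depth under 50, 5.72% ± 2.34 were found in all 3 replicates, beside 5.42% ± 1.71 of other clusters (SD, n = 3 replicates). At a depth of at least 50 the member shares were 17.1%, 11.5% and 16.7% in replicates 1, 2 and 3, and those of other clusters 25.7%, 23.9% and 30.7%. All 3 member shares lay below all 3 shares of other clusters. This class has no upper limit, and member clusters reached depths of 254, 261 and 227 reads in replicates 1, 2 and 3. Other clusters reached 8012, 8001 and 7169 reads, so these shares were not compared at like depth. Grouped by edited reads instead, the shares were mixed in order. Of clusters with 1 edited read, 5 of 154 in members (3.25%) and 2.19% elsewhere were found in all 3 replicates, and of clusters with 2 edited reads, 7 of 172 (4.07%) and 3.92%. Of clusters with 3 to 5 edited reads, 9 of 101 in members (8.91%) and 1332 of 10227 elsewhere (13.0%) were, with the members lower in replicates 1 and 2 and higher in replicate 3 (23.1% against 18.5%). Of clusters with 6 to 10 edited reads, 7 of 17 in members (41.2%) and 984 of 2410 elsewhere (40.8%) were, and of clusters with 11 or more, 4 of 5 and 1340 of 1684 (79.6%). Clusters with 11 or more edited reads made up 1.11% of member clusters and 4.17% of the others. These shares by class were not tested.

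The roles differed in how many clusters they held and how deep these were. The 13 lysine demethylases held 35, 36 and 18 clusters in replicates 1, 2 and 3, and 8 of the 13 genes had a cluster in every replicate. The 16 genes grouped as other histone methyltransferases held 29, 33 and 18, with 8 genes in every replicate. They are the SETD genes outside the SETD1 type, EHMT1, EHMT2, EZH1, EZH2, SUZ12 and NSD1, a grouping by name and not by enzyme activity. In both roles replicate 3 was lowest, with about as many clusters in each. The 7 deacetylases held 20, 14 and 14 clusters, and 4 of them, HDAC1, HDAC2, HDAC3 and HDAC5, were edited in every replicate. The 5 genes of the KMT2 and SETD1 type, also grouped by name, held 9, 8 and 10 clusters, the steadiest count of any role.

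The 8 CHD remodelers held 13, 20 and 11 clusters, of which CHD2 supplied 19 of 44. The 7 SWI/SNF genes held 19, 8 and 15, so replicate 2, with the most clusters in the series, had the fewest in these 7 genes. Subunits that the naming rule does not catch are not in this count. Nor are clusters of SMARCE1, which was listed after another gene in 4, 5 and 4. What the complex as a whole would give was not tested. The 6 acetyltransferases held 18, 12 and 7, and 5 of the 6 were edited in every replicate. The 6 bromodomain readers held 6, 8 and 8, the 3 ISWI genes 6, 9 and 6, the 5 other ARID genes 11, 11 and 3, and the 3 DNA methylation enzymes 7, 4 and 3. With these counts a role's order among its neighbours changed from replicate to replicate.

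Read depth separated the deacetylases from every other role in these libraries. The median depth over clusters was 118, 82.5 and 76.0 reads in replicates 1, 2 and 3 for deacetylases, and 50.4, 48.4 and 29.7 for SWI/SNF genes, the next highest. The 2 ranges did not overlap. HDAC1 and HDAC2 accounted for 34 of the 48 deacetylase clusters, and without both genes the medians were 32.8, 32.2 and 22.3 reads over 5, 5 and 4 clusters. The CHD remodelers and the other ARID genes lay at the low end, with medians of 10.5 ± 2.88 and 10.0 ± 1.50 reads (SD, n = 3 replicates). Their median edit fractions were the highest of the roles, at 3.23% ± 0.631 and 4.14% ± 1.24. That of the deacetylases was the lowest, at 0.812% ± 0.231. Without HDAC1 and HDAC2 the deacetylase medians were 2.90%, 2.15% and 1.51% in replicates 1, 2 and 3, so the low value rested on these genes. The edit fraction is the share of covered C bases that were edited.

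**Figure D2:**
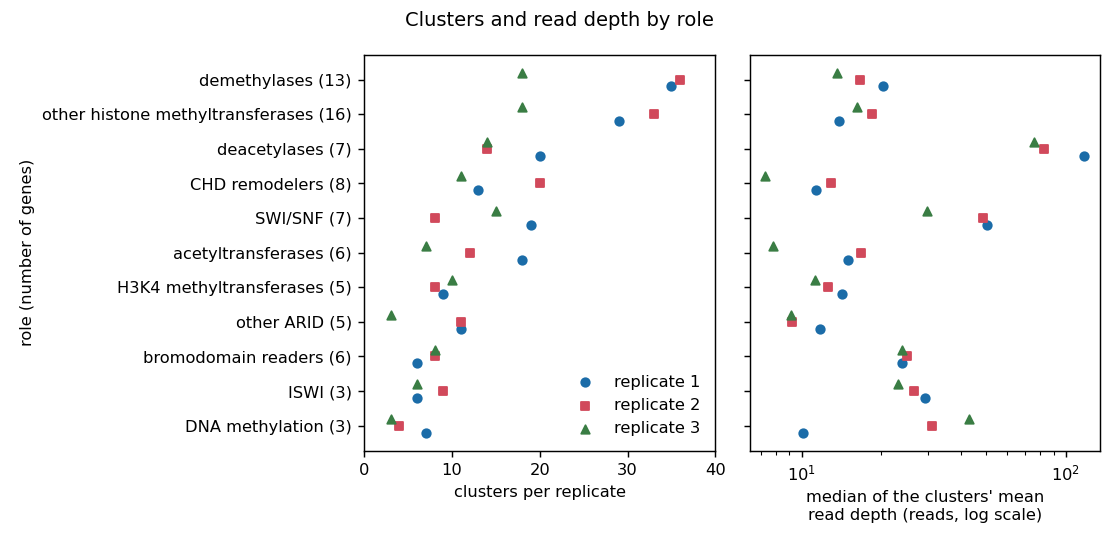
Clusters per replicate (left, number) and the median depth over clusters (right, reads, log scale) for the 11 roles, with 1 symbol per replicate and the number of genes in brackets. The deacetylases lie at 76.0 to 118 reads, above every other role in each replicate, and the SWI/SNF genes have 8 clusters in replicate 2 against 19 and 15.

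Related genes were set side by side. HDAC1 and HDAC2, which share the same complexes, held 13 and 21 clusters at similar depth, with median depths over their clusters of 114 and 161 reads and median edit fractions of 0.629% and 0.670%. EP300 and CREBBP, paralogous acetyltransferases, were edited in every replicate, with 2, 1 and 1 clusters in EP300 and 3, 1 and 1 in CREBBP. The median edit fraction was 4.69% in EP300 and 1.45% in CREBBP, over 4 and 5 clusters with median depths of 7.77 and 12.5 reads.

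The ATPases of SWI/SNF and NuRD complexes had clusters in at most 2 replicates. SMARCA4 had 3 clusters in replicate 1 and 0 in replicates 2 and 3, at a median depth of 54.8 reads, and SMARCA2, its paralog, had no cluster in any replicate. CHD3 had 3, 1 and 0 clusters and CHD4 1, 1 and 0. EZH2, the methyltransferase of Polycomb repressive complex 2, had 1, 6 and 2 clusters with a median depth of 66.4 reads, while EZH1 had 1 cluster in replicate 3 with a depth of 10.6 reads. A gene without a cluster had no window past the filter, which depends on read depth, so a count of 0 does not show that it was not edited.

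The loci seen in all 3 replicates are described by their edited reads. There were 15 in 12 genes, and the 12 loci with the most edited reads are given here with the range of positions that the joined clusters covered. The share of edited reads is the deposited number of edited reads over all reads in the cluster. The deposited counts of edited reads and edited bases do not always match. A cluster of HDAC8 in replicate 2 had 8 edited reads and 7 edited bases. Intervals are Wilson 95% intervals, which cover counting error only and treat reads as independent molecules. Only 2 of the 15 loci had the same boundaries in all 3 replicates. At the others the shares and intervals of the replicates came from stretches that differed, so an overlap of intervals there does not compare the same bases.

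The highest count of edited reads was in HDAC5, a class IIa deacetylase, in exon segment 22 on the minus strand of chromosome 17 (chr17:42162480-42162525). The cluster had the same boundaries in all 3 replicates and 12 of 38, 15 of 40 and 4 of 19 reads were edited. These shares were 31.6% (interval 19.1 to 47.5), 37.5% (24.2 to 53.0) and 21.1% (8.51 to 43.3). The intervals overlapped in all 3 replicates. Each edited read carried exactly 1 edited base on average, since the counts of edited bases and of edited reads were equal in every replicate. The stretch holds 10 C bases, and its edit fraction was 5.61%, 5.60% and 4.17%.

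The only other member locus with the same boundaries throughout was in KAT6A, in segment 0 on the minus strand of chromosome 8 (chr8:41790042-41790087). There 4 of 13, 6 of 25 and 4 of 7 reads were edited, or 30.8%, 24.0% and 57.1%, and the edit fraction was 2.84%, 2.04% and 4.82%. Replicate 3 was highest on the fewest reads, and its interval overlapped those of the other replicates. Whether the share of edited reads differed between replicates was tested for the 174 loci of the series with the same boundaries in all 3, with an exact Freeman-Halton test and Benjamini-Hochberg adjustment over the 174. Over all of them 2.30% were called (4 loci, with 17 at an unadjusted p under 0.05). Of the 2 member loci, 0 were called and 0 had an unadjusted p under 0.05, by the exact test and by a chi-square test. The exact unadjusted p was 0.240 in KAT6A (adjusted p = 0.945) and 0.475 in HDAC5 (adjusted p = 1), which at 45 and 97 reads does not show that the replicates were alike.

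HDAC2 had its locus in segment 0, the segment of lowest coordinate, on the minus strand of chromosome 6 (chr6:114262022-114262172). Here 11 of 214, 11 of 182 and 6 of 129 reads were edited, the last summed over a pair of clusters, which were 5.14%, 6.04% and 4.65%. The intervals of these shares overlapped. Replicate 2 held 33 edited bases in this cluster, the most of any member cluster. In HDAC1, 2 loci lay in the last edited segment, number 24, of the plus strand of chromosome 1. At chr1:32798843-32798948, 7 of 274, 8 of 202 and 3 of 181 reads were edited, and at chr1:32798693-32798798, 6 of 183, 1 of 136 and 5 of 133.

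SMARCD2, a SWI/SNF subunit, had 10 of 135, 7 of 117 and 3 of 70 edited reads in segment 0 (chr17:61909729-61909834, minus strand). The clusters of replicates 2 and 3 there touched without overlapping, and each overlapped the longer cluster of replicate 1. Clusters of 2 replicates that did not overlap each other were also joined in HDAC1 (chr1:32798843-32798948), DNMT1 (chr19:10244126-10244186), SMARCC1, SMARCA1 and both loci of KDM5B. DNMT1, the maintenance DNA methyltransferase, held 2 loci in segment 0 on the minus strand of chromosome 19. At chr19:10244201-10244306, 6 of 142, 1 of 100 and 8 of 201 reads were edited, and at chr19:10244126-10244186, 4 of 82, 2 of 66 and 2 of 53. All 6 clusters of DNMT1 lay in this segment, and all 6 belonged to these 2 loci.

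In KAT7, 2 of 59, 6 of 55 and 2 of 25 reads were edited in segment 40 (chr17:47906203-47906263, plus strand). In SMARCC1, 2 of 87, 3 of 73 and 4 of 74 reads were edited in segment 0 (chr3:47628157-47628247, minus strand). In KDM5B, 3 of 35, 1 of 42 and 4 of 29 reads were edited in segment 0 (chr1:202697036-202697246, minus strand). These counts of 1 to 6 edited reads leave wide intervals that overlapped between replicates. In KMT2A, 3 of 24, 2 of 23 and 3 of 10 reads were edited in segment 70 (chr11:118395312-118395372, plus strand). The 3 remaining loci, in SMARCA1, KDM5B and CHD2, had 5 to 7 edited reads each.

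Against the 1586 loci of the series found in all 3 replicates, the 15 member loci had fewer edited reads in all (median 10 against 18) and a higher share of edited reads (median 6.83% against 4.63%). These loci were not compared at like read depth, and the edited reads of a locus reached 31 in members and 12017 over the series. By the mean share of edited reads, 39 of the 1586 loci lay above KAT6A and 43 above HDAC5. At the member loci the mean share ran from 2.59% to 37.3%.

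**Figure D3:**
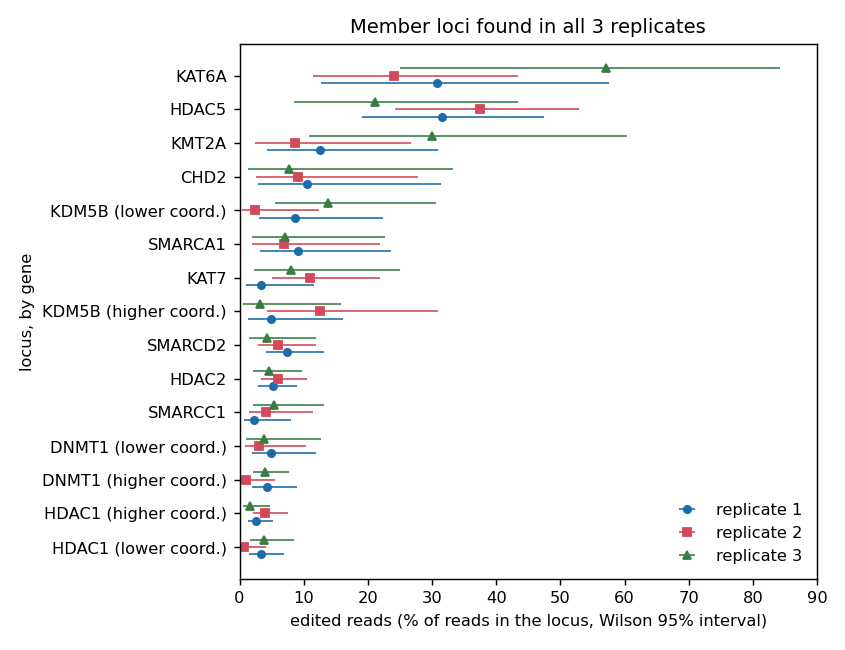
Edited reads as a percentage of the reads in the locus (horizontal axis) for the 15 member loci found in all 3 replicates (vertical axis, by gene, with lower or higher coordinate where a gene has 2 loci), with 1 symbol per replicate and Wilson 95% intervals as bars. KAT6A and HDAC5 lie at 21.1% to 57.1%, and in every locus the intervals of the replicates overlap. Only these 2 loci have the same boundaries in all 3 replicates, and elsewhere the intervals come from stretches that differ.

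The edit fraction of member clusters fell with read depth. Across member clusters of a replicate, Spearman's rho between mean depth and edit fraction was -0.82, -0.67 and -0.79 in replicates 1, 2 and 3 over 173, 163 and 113 clusters, a description across clusters that share a library and a filter that itself uses depth. The median edit fraction of member clusters was 4.59% at a depth under 10, 2.09% at 10 to 20, 1.50% at 20 to 30, 1.40% at 30 to 40, 1.17% at 40 to 50 and 0.765% at 50 or more. Other clusters had 5.03%, 2.33%, 1.65%, 1.39%, 1.23% and 0.783% in the same classes. The highest edit fractions were 18.2% in SETD9 in replicate 1 (2 of 10 reads edited), 16.7% in CHD1 in replicate 3 (1 of 9) and 14.3% in EP300 in replicate 3 (1 of 7). The extremes rested on 1 or 2 edited reads.

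The median depth of member clusters was below that of other clusters in every replicate. It was 17.7 ± 2.64 reads against 23.7 ± 2.24 (SD, n = 3 replicates), and the difference was -5.10, -6.74 and -6.25 reads in replicates 1, 2 and 3. The mean difference was -6.03 ± 0.844 reads, with p = 0.25 by the exact sign-flip permutation test, again the smallest possible. Clusters with a depth of at least 50 were 17.4% of member clusters and 27.3% of the others. Set against clusters of ZNF genes, the difference turned, and member clusters were deeper by 6.20 reads.

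Weighted over depth classes, the edit fraction of members lay below that of other clusters in each replicate. In single classes the sign varied. At a depth of at least 50 the difference was 0.0320, 0.0473 and -0.135 percentage points in replicates 1, 2 and 3. The weighted result did not hold under every setting, and the class of at least 50 has no upper limit. Within depth classes, weighted by the members' own number in each class, the difference in the median was -0.0965, -0.356 and -0.149 percentage points in replicates 1, 2 and 3 (mean -0.201, exact sign-flip permutation test p = 0.25). Without depth classes the sign changed, since members had a median of 1.80% ± 0.0600 and other clusters 1.70% ± 0.0928, a mean difference of 0.109 percentage points that was positive in 2 of 3 replicates. With at least 2 edited reads the difference within classes was -0.0401, -0.200 and 0.0599 percentage points (mean -0.0599, exact sign-flip permutation test p = 0.75), and against ZNF clusters it was 0.0149, -0.433 and -0.149, so its sign was then not shared by the replicates. Without replicate 2 its mean was -0.123.

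**Figure D4:**
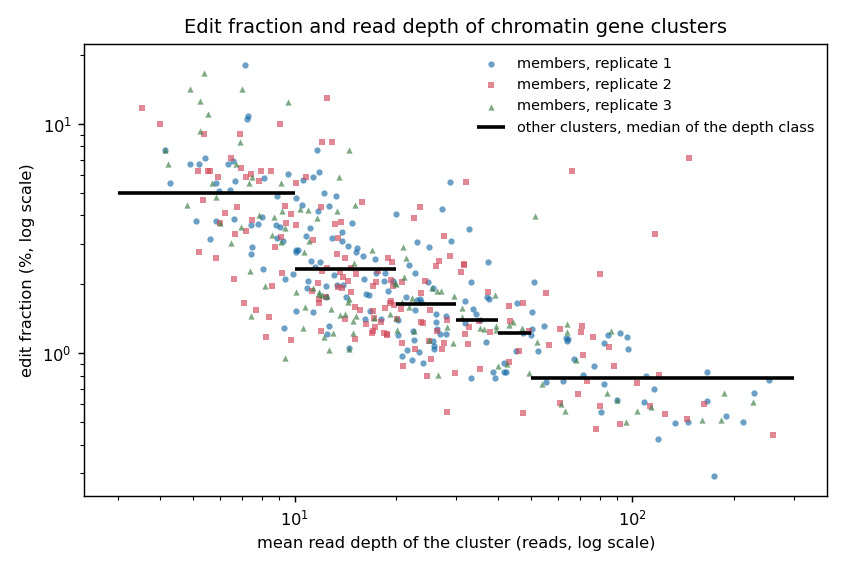
Edit fraction (vertical axis, %, log scale) against mean read depth (horizontal axis, reads, log scale) of the 449 member clusters, with 1 symbol per replicate. Black lines give the median of other clusters in each depth class, averaged over replicates, from 5.03% under a depth of 10 to 0.783% at 50 or more, and the member clusters scatter around them.

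Some deep clusters above this trend had few reads over their C bases. In BRD2, a bromodomain protein, 1 cluster of replicate 2 had a mean depth of 147 reads and 14 covered C bases over 2 C bases of sequence, or 7 per C base, so that 1 edited base gave an edit fraction of 7.14%. A cluster of HDAC1 in replicate 2 had a depth of 117 and 6 reads per C base, and an intronic one of EZH2 in replicate 2 had 66.4 and 5.33. Such clusters, in which the coverage per C base was under 50% of the mean depth, were 8 of 449 in members and 1812 of 40394 elsewhere. These were 1.81% ± 1.25 and 4.43% ± 0.592 of the clusters of a replicate (SD, n = 3 replicates).

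Clusters of members lay nearly all in exons. Intronic clusters were 1 in SETD2 (replicate 1), 1 each in KMT2B and EZH2 (replicate 2) and 1 in KAT8 (replicate 3). No member had an intronic cluster in more than 1 replicate. This was 0.897% ± 0.325 of member clusters against 2.10% ± 0.323 of other clusters (SD, n = 3 replicates). The difference was -1.62, -1.12 and -0.848 percentage points in replicates 1, 2 and 3, and the exact sign-flip permutation test gave p = 0.25. It rested on 4 clusters. The one in KAT8 is also listed under a second gene.

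In many members, clusters gathered at the 3′ end. The exons and introns of a gene are numbered together in the files, and the numbers rose with the coordinate on both strands, so segment 0 is the 3′ end of a gene on the minus strand. The files do not say which part of an exon is coding. Of the 33 members on the minus strand, 23 had a cluster in segment 0, and 102 of their 205 clusters lay there. In DNMT1 (6 clusters), SMARCD2 (8) and KDM2B (4), every cluster was in segment 0. KDM5A had 11 of 12 clusters there, SMARCC1 10 of 11, KAT6A 8 of 10 and HDAC3 5 of 6.

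Other minus-strand members were edited along the transcript. KDM5B had 11 of 23 clusters in segment 0 and the rest over 10 other segments. HDAC2 had 6 of 21 in segment 0, over 10 segments in all, and EZH2 2 of 9 over 8 segments. CHD8 had none of its 4 clusters in segment 0. SETD7 had none there either, but 9 of its 11 clusters lay together in segment 2. On the plus strand, where the 3′ end has the highest number, KMT2A had 14 of 15 clusters in segment 70, KAT7 10 of 12 in segment 40, CHD2 13 of 19 in segment 92 and HDAC1 9 of 13 in segment 24, each the highest segment in which that gene had a cluster. SMARCA5, also on the plus strand, had 12 clusters over 9 segments.

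The share of minus-strand clusters at the 3′ end was lower in members than elsewhere in every replicate. The share in segment 0 was 49.9% ± 3.49 in members and 59.6% ± 2.44 in other clusters (SD, n = 3 replicates). The difference was -10.2, -11.5 and -7.63 percentage points in replicates 1, 2 and 3, with a mean of -9.77 ± 1.98, with p = 0.25 by the exact sign-flip permutation test. This comparison was chosen after the values had been seen. Weighted over depth classes the difference was -9.86 percentage points. The members here leave out SMARCE1, which was listed after KRT222 in 3, 5 and 4 clusters of segment 0 in replicates 1, 2 and 3. What counting them would change was not tested.

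**Figure D5:**
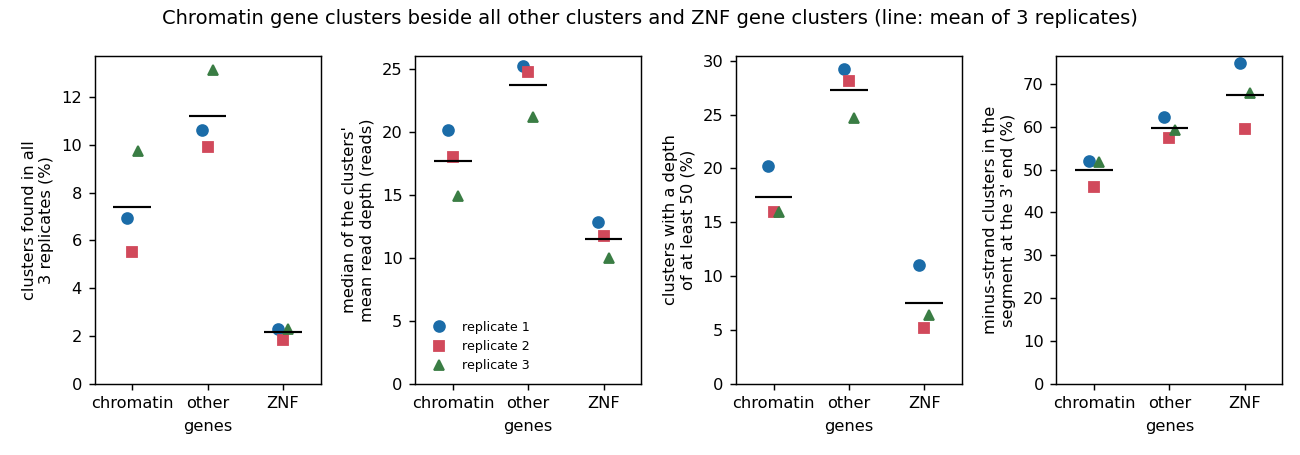
From left to right, the percentage of clusters found in all 3 replicates, the median depth over clusters (reads), the percentage of clusters with a depth of at least 50, and the percentage of minus-strand clusters in the segment at the 3′ end, for chromatin genes, all other genes (ZNF genes included) and ZNF genes, with 1 symbol per replicate and the mean as a line. In each panel every replicate of the chromatin genes lies below every replicate of all other genes, most narrowly in the first, at 9.73% against 9.91%.

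Chromatin regulators outside the naming rule were counted from a list of 81 symbols, which holds older and current names of a few genes. Of these, 64 had a cluster, 30 of them in all 3 replicates (46.9%), 21 in 2 and 13 in 1. They held 349 clusters in 299 loci. Of these 299 loci, 7 were found in all 3 replicates, a lower share than in members (15 of 386, 3.89%) and over the series (1586 of 33244, 4.77%). HELLS, a helicase of the SNF2 family involved in DNA methylation, led with 6, 8 and 3 clusters in replicates 1, 2 and 3. CBX3, a heterochromatin protein, had 3, 6 and 5, HAT1, an acetyltransferase of newly made histones, 4, 3 and 7, and RBBP4, a histone-binding subunit shared by several complexes, 8, 4 and 2. HAT1 had 6 clusters found in all 3 replicates, more than any member. The share of these genes edited in all 3 replicates, 46.9%, lay between that of the members and that of all genes, and no test of the difference was made.

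Of the protein-coding genes that meet the rule in a RefSeq table, 26 had no cluster under that name as the first one listed. They include the SWI/SNF genes SMARCA2, SMARCB1, SMARCD3 and SMARCE1, the methyltransferases KMT2D and SETD1B, the deacetylases HDAC4, HDAC7, HDAC9 and HDAC10, and TET1 and TET2, which oxidise methylated DNA. Naming accounted for some of these. KAT14 and KDM7A stood in the files as CSRP2BP, with 0, 3 and 3 clusters in replicates 1, 2 and 3, and JHDM1D, with 1, 0 and 0, and were not counted. SMARCE1 was listed behind KRT222 or another gene in 4, 5 and 4 clusters. CHD2 was listed second in a further 4, 3 and 2 clusters.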

How the data were processed

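RNA editing was measured in 3 replicates of 1 condition. Per the labels and methods, reads of polyA RNA from stranded libraries were processed one replicate at a time, C-to-U sites were called with SAILOR, which removes common SNPs, and clusters were called with FLARE from short windows tested against a background rate for their region and depth class. The submitters' processing notes name STAR and hg19. The authors deposited, per cluster, unscaled counts of C bases, covered C bases and edited bases and of reads and edited reads. The edit fraction and the fraction of edited reads deposited by the authors are ratios of these counts. The authors also deposited the mean coverage of the cluster in reads, with no scaling to library size, and a score between 0 and 1. Windows that failed the filter and the full library depth were not used here, so reads in clusters are not the depth of a library. Whether starts count from 0 or 1 is not given in the sources used here. Positions are printed as deposited.

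Values were computed with Python 3.11.15, NumPy 2.4.6, pandas 2.3.3 and SciPy 1.17.1 and plotted with matplotlib 3.10.9. Means and SD are over 3 replicates. Differences between members and other clusters were taken within each replicate and tested with an exact two-sided sign-flip permutation test, whose smallest p is 0.25. Loci with the same boundaries in 3 replicates were tested with an exact Freeman-Halton test and Benjamini-Hochberg adjustment over all such loci, at a threshold of 0.05. The tests were run on simulated data with known answers first. The rule for members reads names only, but it, the role groups, gene lists and tests were chosen with earlier results of these data known. Named were the 12 members with the most clusters (with 2 more that tied with the last), the 12 member loci in all 3 replicates with the most edited reads, members with intronic clusters in at least 2 replicates (there were 0), SMARCA2, SMARCA4, EP300, CREBBP, HDAC1, HDAC2, CHD3, CHD4, EZH1 and EZH2, and member loci that differed between replicates (there were 0). A further gene that the rule named is not reported here. Other genes were named as examples after their values were seen. All 79 member symbols matched a RefSeq table of GRCh38.p14, 1 of them (SETD8) by a synonym. No position was taken from that table.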

Additional observations from a re-analysis of the deposited data

How the results depend on the processing

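Most values kept their direction. Of 42 alternative values of the differences between member and other clusters, 40 had the sign of the reported value. In edit fraction, depth, intronic share and share at the 3′ end, all 3 replicates had shared a sign. Leaving out 1 replicate could therefore not change the sign there, and these values are among the 42. The median edit fraction of members lay below that of other clusters when weighted over depth classes (-0.201 percentage points) and above it without depth classes (0.109). The median depth of members lay below that of other clusters (-6.03 reads) and above that of ZNF clusters (6.20). The number of member clusters per replicate was 149.7 and fell to 84.3 with a score of at least 0.99, to 26.3 with a depth of at least 50 and to 98.3 with at least 2 edited reads, which follows from keeping fewer clusters. Leaving out each replicate in turn gave 138 to 168 clusters. Counting any listed gene, an alternative chosen after seeing the data, gave 157. The share of member clusters found in all 3 replicates (7.40%) was 3.46% where clusters had to share at least 50% of their lengths and 14.2% at a depth of at least 50. Without 1 replicate, the share found in both of the others was 15.4% to 16.7%. The differences in the share at the 3′ end and in clusters with 1 edited read, with all their alternatives, were chosen after seeing the data. For the share at the 3′ end they ran from -10.8 to -7.07 percentage points. No member locus was left for the exact test between replicates at a depth of at least 50. With 2 replicates the smallest sign-flip p is 0.5, so leaving out a replicate could not change a call. No paired analysis was possible because there was 1 group, so no replicate block between groups could be fitted (member and other clusters were compared within each replicate). Depth limited the precision, since 34.3% of member clusters had 1 edited read and the clusters of members with a depth of at least 50 numbered 79.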

Other observations

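Member clusters that rested on 1 edited read were common. They numbered 154 of 449 (34.3%), and 172 more (38.3%) had 2 edited reads. Per replicate the share with 1 edited read was 34.8% ± 8.98 in members and 30.6% ± 2.50 in other clusters (SD, n = 3 replicates). The difference was -3.16, 11.4 and 4.18 percentage points in replicates 1, 2 and 3, with a mean of 4.14 and p = 0.5 by an exact sign-flip permutation test, so its sign was not shared by the replicates. Without replicate 2 the mean was 0.505, without replicate 1 it was 7.79, and weighted over depth classes it was 0.0782.

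In some of these clusters the only edited read carried many edits. Of the 154, 22 (14.3%) held at least 5 edited bases, beside 1789 of 12315 (14.5%) among other clusters with 1 edited read. In KDM5B, 1 read among 57 in a cluster of replicate 1 carried 9 edited bases. In KDM4A, a demethylase, 1 read among 31 in replicate 2 carried 8, and in TET3, which oxidises methylated DNA, 1 read among 11 in replicate 1 carried 8. At the HDAC5 locus found in all 3 replicates the opposite held, with 31 edited reads over 3 replicates that carried 31 edited bases. At the KAT6A locus the edited bases also equalled the edited reads, with 4, 6 and 4 of each in replicates 1, 2 and 3.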
